A study of Rattus norvegicus with 9 samples.

Results

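Hrh3, the gene for the histamine H3 receptor, was followed across the ageing rat cerebral cortex as the count row ENSRNOG00000008080, 1 of 29516 gene identifiers. It was chosen by its own read counts, because they differed between ages in these same libraries, so its levels and fold changes are given as a description and without a test. RNA came from the cerebral cortex of male BN rats (BN/SsNOlaHSD), kept on a light and dark cycle and fed freely, at 6, 12 or 28 months of age. No genotype or treatment separated the groups, and each age was labelled with 3 libraries, every one a pool of 2 rats depleted of ribosomal RNA. The spread between libraries is therefore a spread between pools, and the values of single animals were not analysed here.

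1 library was deposited under 2 ages. The file labelled 12 months sample 3 repeated that of 6 months sample 2 at all 29516 identifiers, which leaves 8 distinct libraries, and the labels do not settle the age of the shared library. It was left out of every comparison between ages and its values are given separately, so that 2 libraries remained at 6 months, 2 at 12 months and 3 at 28 months. Samples are numbered within each age and the numbers do not pair them.

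The H3 receptor is a G protein-coupled receptor that signals through Gi/o proteins. It sits largely on axon terminals, as an autoreceptor on the histamine neurons of the hypothalamus and as a heteroreceptor on other neurons, where its activation lowers the synthesis and release of histamine and the release of other transmitters. It is also found on cortical and striatal neurons themselves, and is known for its part in wakefulness and cognition. The RefSeq table of the GRCr8 assembly lists 8 curated mRNAs for Hrh3, so that a count per gene adds up its isoforms. The gene lies between Mtg2 and Osbpl2 on chromosome 3 in that table, with 0 other annotated genes overlapping it.

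The libraries held 6513376 to 9196951 reads counted on genes. The most abundant identifier took 44.0 to 52.4% of them, which left 3431328 to 4891332 reads for all other genes. Reads assigned to no annotated gene feature were 47.5 to 60.0% of the reads counted on genes, on no feature or as ambiguous. Hrh3 itself was covered by 34 to 355 reads per library. Intervals on these reads are exact Poisson intervals at 95% and cover counting error only.

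Hrh3 had most reads at 6 months, with 355 reads in sample 1 (319 to 394) and 160 reads in sample 3 (136 to 187). At 12 months it had 39 reads in sample 1 and 39 reads in sample 2 (27.7 to 53.3 in each). At 28 months it had 90 reads in sample 1 (72.4 to 111), 124 in sample 2 (103 to 148) and 49 in sample 3 (36.3 to 64.8). The 12-month libraries were thus the lowest of the 7 libraries with 1 age, and the 28-month libraries lay mostly between the other ages. The shared library held 34 Hrh3 reads (23.5 to 47.5).

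**Figure D1:**
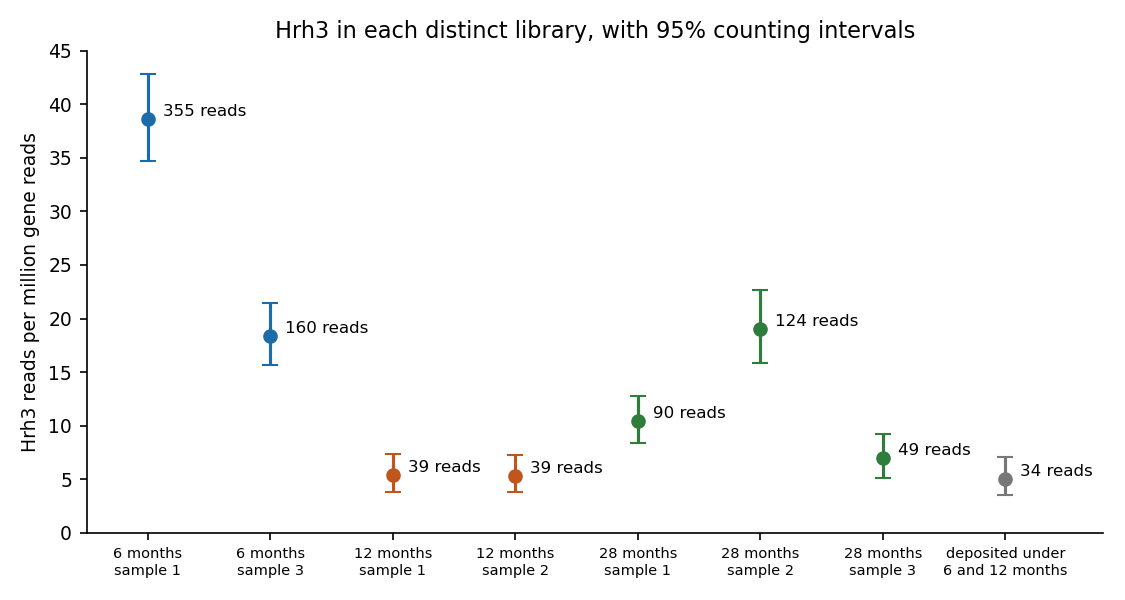
Hrh3 CPM, the reads scaled to the total of gene reads (vertical axis), in each of the 8 distinct libraries, grouped by age, with exact Poisson intervals at 95% as bars and the raw reads beside each point. Both 6-month libraries (38.6 and 18.4) stood above both 12-month libraries (5.41 and 5.33), and 28 months sample 2 (19.0) stood level with the lower of the 6-month libraries.

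Levels were compared as normalised counts, CPM after scaling by TMM, a method that assumes that most genes keep their level between libraries. The normalised count of Hrh3 at 6 months was 38.7 in sample 1 and 18.3 in sample 3, with a mean of 28.5 ± 14.4 (SD, n = 2). At 12 months it was 5.56 in sample 1 and 5.36 in sample 2, with a mean of 5.46 ± 0.142 (SD, n = 2). At 28 months it was 11.1 in sample 1, 17.1 in sample 2 and 7.43 in sample 3, with a mean of 11.9 ± 4.90 (SD, n = 3). The ages did not overlap on this scale, in the order 6 months, 28 months, 12 months, and the shared library, at 4.74, lay below all 7. Counted at 6 months, the shared library would make that age overlap both others. In bulk tissue, fewer cells that express Hrh3 and less Hrh3 RNA in each cell cannot be told apart.

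The spread within an age was wide except at 12 months. With the shared library set aside, the highest library exceeded the lowest 2.11-fold at 6 months, 2.31-fold at 28 months and 1.04-fold at 12 months. Counted at 6 months, the shared library would widen that spread. In CPM, 6 months sample 1 exceeded it 7.68-fold (5.39 to 11.3) and 6 months sample 3 exceeded it 3.66-fold (2.51 to 5.46). Counting error did not span the gap at 6 months, where the ratio of sample 1 to sample 3 in CPM was 2.10 (1.74 to 2.55). At 28 months sample 2 exceeded sample 1 by 1.83-fold (1.38 to 2.43) and sample 1 exceeded sample 3 by 1.50-fold (1.05 to 2.17). At 12 months the ratio of the samples was 1.01 (0.633 to 1.62). The fitted biological coefficient of variation of Hrh3, the relative spread between libraries beyond counting error, was 0.227 in the fit of 6 and 12 months, where the median gene had 0.171.

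In descending order of normalised count the libraries ran from 6 months sample 1 to 6 months sample 3, 28 months samples 2, 1 and 3, 12 months samples 1 and 2, and the shared library. Neighbours in that order were not all apart. In CPM without TMM, 28 months sample 2 stood at 1.04 times 6 months sample 3 (0.812 to 1.32), a reversal of their order in normalised counts, where they had 17.1 and 18.3. At the lower end, 28 months sample 3 stood at 1.28 times 12 months sample 1 (0.826 to 2.01) and at 1.30 times 12 months sample 2 (0.837 to 2.04). These intervals include equality, as did that of 12 months sample 1 over the shared library, at 1.07 (0.661 to 1.76). Across ages, the interval lay above 1 in 4 of the 4 pairs of a 6-month and a 12-month library. It did so in 5 of the 6 pairs of a 6-month and a 28-month library. For a 28-month and a 12-month library this held in 4 of the 6 pairs. The pairs reuse the same libraries and the intervals hold counting error only. This count therefore describes Hrh3 and tests no difference between ages.

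Between 6 and 12 months the log2FC of Hrh3 was -2.39 (SE 0.35), a 5.25-fold lower level at 12 months with n = 2 libraries at each age. This SE draws on a spread estimated in part across genes. The SD of the log2 normalised counts of Hrh3 itself was 0.76 at 6 months and 0.57 pooled over the ages. With the shared library counted at 6 months the log2FC was -1.93 and its SE 0.71. Of the 15966 genes tested in this comparison, 171 had a log2FC at or below that of Hrh3, or 1.07%, and 1.20% of the genes, 50 higher and 141 lower at 12 months, passed an FDR of 0.05 in the edgeR quasi-likelihood test. These shares describe the background of the comparison, since Hrh3 was picked from it. The size of the difference rested in part on 6 months sample 1, without which the log2FC was -1.74.

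Between 12 and 28 months the log2FC of Hrh3 was 1.13 (SE 0.32), a 2.20-fold higher level at 28 months. A log2FC at or above this one was held by 441 of 15840 genes, or 2.78%, and 0.120% of the genes passed the FDR. The log2FC was 0.78 without 28 months sample 2, the highest of that age. The 12-month libraries are the same as in the comparison with 6 months, so both differences share their low point and are not separate evidence of it.

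Between 6 and 28 months the log2FC of Hrh3 was -1.26 (SE 0.34), a 2.39-fold lower level at 28 months. A log2FC at or below this one was held by 355 of 16042 genes, or 2.21%, and 0.206% of the genes passed the FDR. This difference shrank to -0.62 without 6 months sample 1 and to -0.80 with the shared library counted at 6 months. With the 3 ages in 1 fit, Hrh3 at 12 months lay 1.76 below the mean of 6 and 28 months on the log2 scale (log2FC -1.76, SE 0.37).

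**Figure D2:**
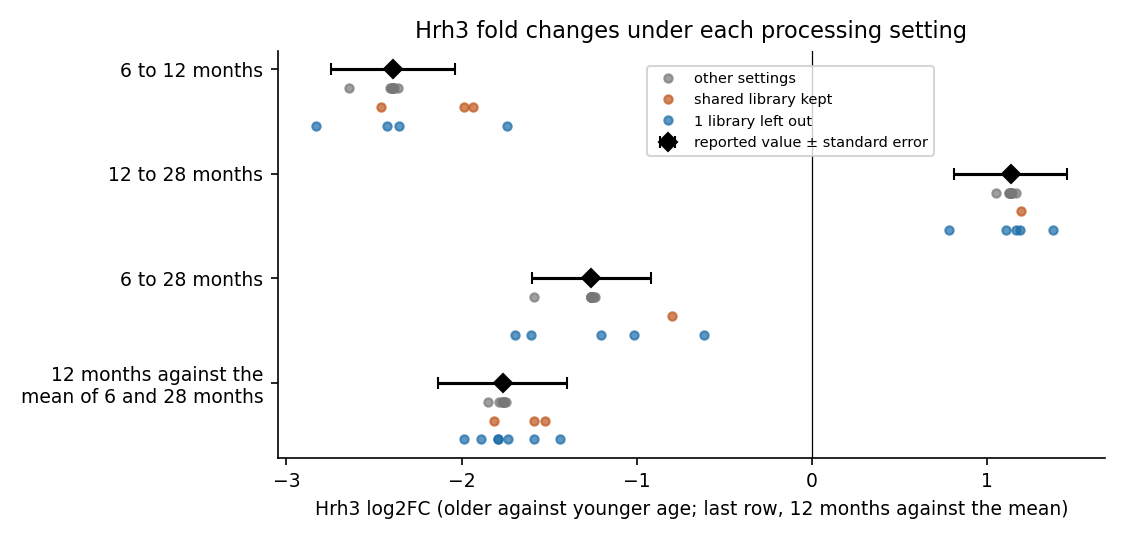
Hrh3 log2FC (horizontal axis, older against younger age, and 12 months against the mean of 6 and 28 months in the lowest row). Diamonds are the reported values with their standard errors and circles the values under other settings, with the shared library kept, or with 1 library left out. Every circle lies on the same side of 0 as its diamond, and those of 6 to 28 months come nearest to 0, at -0.62. With ages that did not overlap in normalised counts, leaving out 1 library could not change the side.

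The scale used to normalise Hrh3 moved these values little, apart from a single reference gene. Against Hprt1, a housekeeping gene of purine salvage that served the study as a reference, Hrh3 had 0.841 and 0.269 reads per Hprt1 read at 6 months, samples 1 and 3. The corresponding ratios were 0.0775 and 0.0751 at 12 months, and 0.163, 0.259 and 0.0937 at 28 months, samples 1 to 3. Both scales put the ages in the same order, although Hprt1 was itself lower in 6 months sample 1, at a normalised count of 46.0, than in the other 7 libraries, at 66.2 to 79.3. On the Hprt1 scale the log2FC was -2.64 from 6 to 12 months, 1.05 from 12 to 28 months and -1.59 from 6 to 28 months. With the most abundant identifier removed before scaling, these were -2.38, 1.13 and -1.26.

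Genes around the receptor could be read only where an identifier was paired with a symbol. Of 51 symbols in lists of the histamine system, Gi/o signalling, other transmitter systems, and cortical layer and activity genes, 15 were matched. None of the 10 symbols of the histamine system (the synthetic enzyme Hdc, the degrading enzymes, the transporters and the other histamine receptors) was among them, so histamine itself could not be followed. Several of the matched genes entered the name table because the study listed them from these same samples, so their direction is not independent evidence. By the edgeR quasi-likelihood test at an FDR of 0.05 over all genes, 0 of 15 were called from 6 to 12 months, 0 of 15 from 12 to 28 months and 0 of 14 from 6 to 28 months. At an unadjusted p under 0.05 the counts were 4, 4 and 5, where 13.6, 7.68 and 6.45% of all genes tested fell under it. The edgeR exact test called 1, 2 and 2 of them (2.89, 0.808 and 0.860% of all genes), and DESeq2 called 0, 1 and 2 (1.50, 0.518 and 0.449% of all genes). Their median log2FC was -0.11, -0.02 and -0.08, beside -0.01, 0.01 and -0.01 over all genes tested.

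Gnai1, a Gi alpha subunit of the kind that the H3 receptor couples to, was the only gene of 12 in its list that could be matched. Its normalised count was 79.5 and 108 at 6 months, samples 1 and 3, 114 and 109 at 12 months, and 132, 85.3 and 117 at 28 months, samples 1 to 3. The 28-month libraries overlapped both other ages, and 6 and 12 months nearly met, at 108 and 109. The log2FC was 0.24 (SE 0.17), 0.01 (SE 0.19) and 0.25 (SE 0.21) for 6 to 12, 12 to 28 and 6 to 28 months, with edgeR FDRs of 0.577, 0.996 and 0.897.

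Among the 10 matched genes of other transmitter systems, Qdpr came nearest to the FDR threshold. Qdpr encodes dihydropteridine reductase, which regenerates the cofactor of monoamine synthesis. Its normalised count was 161 and 142 at 6 months, 128 and 154 at 12 months, and 88.4, 69.4 and 78.1 at 28 months. Every 28-month library lay below every younger one, a pattern unlike that of Hrh3. The share of all genes separated in this way was not counted. The log2FC of Qdpr was -0.11 (SE 0.16) from 6 to 12 months, -0.83 (SE 0.17) from 12 to 28 months and -0.95 (SE 0.17) from 6 to 28 months. The edgeR FDRs were 0.812, 0.0990 and 0.0586.

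Nptxr, the neuronal pentraxin receptor of glutamate synapses, was lower at 12 months than at 6 and 28 months in its means. It had 129 and 117 at 6 months, 99.2 and 80.7 at 12 months, and 105, 175 and 101 at 28 months as normalised counts. The log2FC was -0.46 (SE 0.16, edgeR FDR 0.278) from 6 to 12 months and 0.51 (SE 0.24, edgeR FDR 0.653) from 12 to 28 months, and neither passed the test. Gria2, an AMPA receptor subunit at 761 to 961 normalised counts in all 8 libraries, had log2FCs of -0.03, 0.13 and 0.10. Scg2, a protein of dense-core vesicles, had -0.13, -0.02 and -0.15, and Glrb, the beta subunit of the glycine receptor, had -0.39, 0.11 and -0.28. Bche, a cholinesterase, had -0.14, 0.31 and 0.17, and Gucy1a2, a subunit of the nitric oxide receptor, had 0.18, -0.10 and 0.08.

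The remaining transmitter genes were read at low levels. Trh, the precursor of thyrotropin-releasing hormone, had at most 5.63 normalised counts and log2FCs of 0.85, -2.53 and -1.67 with standard errors of 0.63, 0.64 and 0.62. Tph2, the neuronal enzyme of serotonin synthesis, had at most 4.53 normalised counts, and its 12-month libraries held 3 and 33 reads. The log2FCs of Tph2 were -0.58, -0.85 and -1.44 (SE 0.67, 0.69 and 0.40), with edgeR FDRs of 0.752, 0.796 and 0.434. Tph1, the form of that enzyme known from the pineal gland and gut, had 0 to 1.10 normalised counts in 7 libraries and 20.5 in the shared library. It was tested in the comparisons with 12 months only, with log2FCs of 1.42 (SE 1.15) and -1.11 (SE 1.12). It entered them only because 12 months sample 2 held 8 reads, so the filter itself favoured a higher value at 12 months.

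Of 10 cortical layer and activity genes 4 were matched. Egr3, an immediate early gene of active neurons, had the order of means of Hrh3 but did not pass the test. It had 10.02 and 12.5 normalised counts at 6 months, 6.27 and 4.40 at 12 months, and 8.52, 9.67 and 8.04 at 28 months. The ages did not overlap, with the shared library set aside, but the share of all genes separated in this way was not counted. The log2FC was -1.08 (SE 0.26, edgeR FDR 0.107) from 6 to 12 months, 0.72 (SE 0.25, edgeR FDR 0.516) from 12 to 28 months and -0.36 (SE 0.21, edgeR FDR 0.841) from 6 to 28 months. Arc, another immediate early gene, which acts at synapses, had log2FCs of -0.28, -0.59 and -0.88 (edgeR FDR 0.643, 0.620 and 0.315). Etv1, a factor of layer 5 projection neurons, had 0.66, 0.41 and 1.07 (edgeR FDR 0.116, 0.730 and 0.256), and Klf10, a growth factor-induced transcription factor, had 0.08, -0.08 and -0.01. Arc was thus lowest at 28 months in its means and Egr3 at 12 months.

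**Figure D3:**
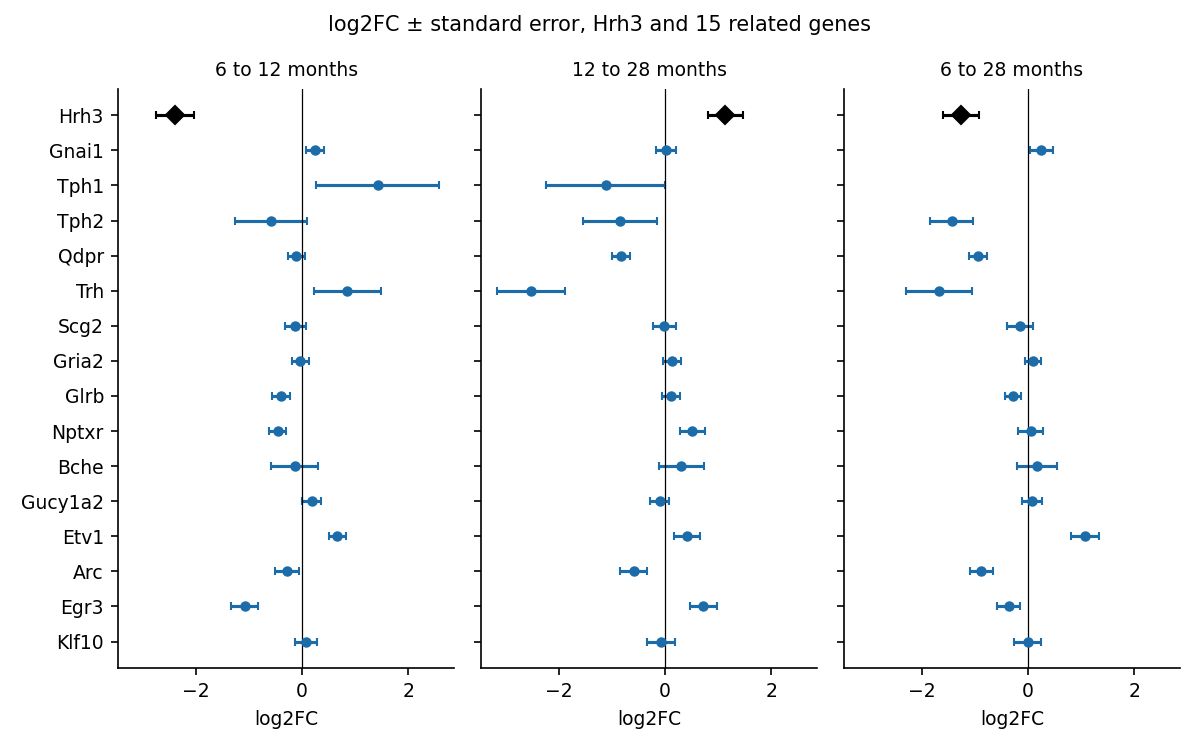
The log2FC with its standard error (horizontal axes) for Hrh3, as a diamond, and the 15 matched genes of the related lists, as circles, in each comparison of ages. Hrh3 lies at -2.39, 1.13 and -1.26, and none of the 15 genes passed an FDR of 0.05 in the edgeR quasi-likelihood test, with Tph1 not tested from 6 to 28 months.

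The likeness of other genes to Hrh3 was measured as Pearson r between log2 normalised counts over the 8 distinct libraries, for the 10967 identifiers with a mean of at least 20 reads. All of these points share the same libraries and their scaling, genes were picked as extremes of many, and no p is given. Of all identifiers, 75 had an r of at least 0.9 and 65 an r of at most -0.9, and the median r was -0.00. Among the 5 named genes with the highest r, the small nucleolar RNA SNORA48 (ENSRNOG00000045258) stood at 0.96 and the small nucleolar RNA SNORA61 at 0.93. They were followed by KCTD1_RAT at 0.90, by U7, the small nuclear RNA of histone mRNA processing, at 0.90 and by the small nucleolar RNA SNORA20 at 0.89. Without 6 months sample 1, SNORA48 had an r of 0.98, KCTD1_RAT of 0.85 and SNORA20 of 0.78.

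SNORA48, a guide RNA for pseudouridylation, ran close to Hrh3 through the libraries. It had 691 and 667 normalised counts at 6 months, 158 and 125 at 12 months, and 361, 422 and 188 at 28 months, with 129 in the shared library. The 28-month libraries fell in the same order as for Hrh3, sample 2 above sample 1 above sample 3. The highest r without a name belonged to ENSRNOG00000014938, at 0.99, which ranged only from 43.3 to 69.2 normalised counts, and ENSRNOG00000001516 followed at 0.98.

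At the other end, the lowest named genes were D3ZVJ6_RAT at -0.90, Sdhd, a membrane anchor of succinate dehydrogenase, at -0.85 and D3ZQL1_RAT at -0.84. D3ZVJ6_RAT had 25.0 and 25.3 normalised counts at 6 months, 42.2 and 44.4 at 12 months, and 27.3, 30.8 and 38.2 at 28 months. Sdhd spanned only 44.8 to 54.5 normalised counts over the 8 libraries. The lowest r without a name belonged to ENSRNOG00000008480, at -0.99, and ENSRNOG00000021765, at -0.96.

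Small non-coding RNAs with a name had profiles in the direction of Hrh3. Of 51 named snoRNA identifiers 50 had enough reads, and all 50 had an r above 0, with a median of 0.75 and a range of 0.35 to 0.96. The 6 mitochondrial tRNAs had a median r of 0.74, while 32 of 74 named protein-coding genes had an r above 0, with a median of -0.17, and 50.0% of all identifiers had one above 0. Most of these RNAs were named because the study listed them from these samples, so the counts are not independent of the ages. The summed snoRNA level was 12734 and 10450 normalised counts at 6 months, 3014 and 2810 at 12 months, and 8009, 4952 and 5651 at 28 months, with 4313 in the shared library. Within 28 months this sum was lowest in sample 2, where Hrh3 was highest. The part of these small RNAs in the result for Hrh3 was not tested.

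**Figure D4:**
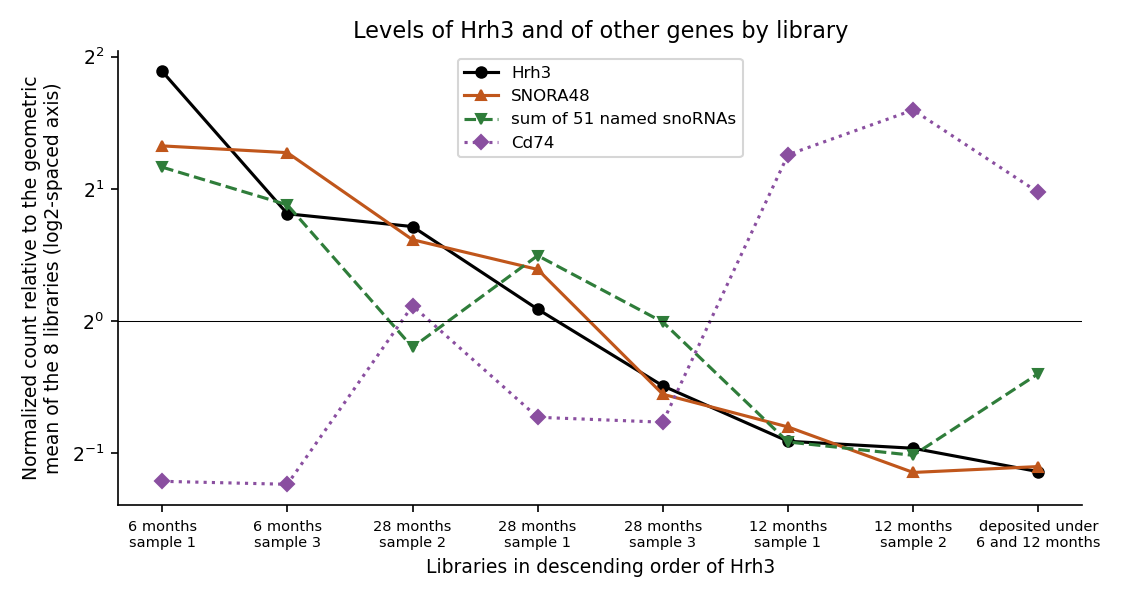
Normalised counts of Hrh3, SNORA48, Cd74 and the sum of 51 named snoRNA identifiers, each relative to its geometric mean over the 8 distinct libraries (vertical axis, log2-spaced), with libraries in descending order of Hrh3. SNORA48 runs close to Hrh3 (r of 0.96) but is nearly level at 6 months (691 and 667) and no lower in the shared library (129) than in 12 months sample 2 (125), the snoRNA sum departs from it at 28 months sample 2, and Cd74 is highest in the 12-month libraries.

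Markers of other cell types were measured beside Hrh3, as far as they could be matched. The matched markers were named because the study listed them from these same samples. Their direction and calls are therefore not independent evidence. Of the microglia markers 3 of 5 were matched, and their summed level was 12.7 and 10.8 normalised counts at 6 months, 41.6 and 46.0 at 12 months, and 12.0, 16.2 and 10.5 at 28 months, with 30.3 in the shared library. With the shared library set aside, this sum was highest at 12 months, where Hrh3 was lowest. Most of it there was Cd74, at 28.4 and 35.9. Aif1 had 5.66 and 5.15 at 6 months, 8.98 and 8.79 at 12 months, and only 4.88 in the shared library. Cd74, the invariant chain of MHC class II, rose from 6 to 12 months (log2FC 2.65, SE 0.21, edgeR FDR 0.000601) and fell to 28 months (log2FC -1.82, SE 0.25, edgeR FDR 0.0148). Aif1, a microglial calcium-binding protein, fell from 12 to 28 months (log2FC -1.60, SE 0.27, edgeR FDR 0.0444), and Fcgr3a passed the edgeR quasi-likelihood test in no comparison. Their defining markers Cx3cr1 and P2ry12 were not matched. The calls of Cd74 and Aif1 from 12 to 28 months were lost without 28 months sample 3, without either 12-month library and under total scaling, where their log2FCs stayed below 0. With the shared library counted at its labelled ages Aif1 also lost its call (log2FC -1.37), and that of Cd74 from 6 to 12 months was lost with the shared library counted at 6 months.

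Gfap, the filament protein of astrocytes and the only one of 3 astrocyte markers matched, rose from 6 to 12 months (log2FC 0.88, SE 0.16, edgeR FDR 0.0329) and fell from 12 to 28 months (log2FC -1.29, SE 0.19, edgeR FDR 0.0216). The later call was lost without 28 months sample 3 or either 12-month library and under total scaling, and the earlier one with the shared library at either age, with the filter of at least 1 read and in 1 fit over the 3 ages. Its normalised count was 72.4 and 89.1 at 6 months, 155 and 145 at 12 months, 52.3 to 77.0 at 28 months and 151 in the shared library. Tf, the only one of 4 oligodendrocyte markers matched, had 160 and 128, 207 and 209, and 84.8 to 127 at the same ages, with 197 in the shared library, and passed the edgeR quasi-likelihood test in no comparison, though it was called in 5 of 15 other settings from 12 to 28 months and in 1 of 16 from 6 to 12 months. Of 4 blood, vessel and choroid plexus markers 2 were matched, with a sum of 31.7 and 23.2 at 6 months, 53.7 and 40.4 at 12 months and 19.0 to 29.9 at 28 months, and 71.8 in the shared library. Alb, for serum albumin, had 3 reads in each of the 6-month libraries, against 23 and 51 reads at 12 months. Its log2FC from 6 to 12 months was 3.88 (SE 0.58, edgeR FDR 0.0141), and the size of this fold is uncertain. Alb entered this comparison through the 12-month libraries alone. The filter of 5 reads thus itself favoured a higher value at 12 months. This call is therefore given as a description only, also where it held in other settings. It was lost with the shared library counted at 6 months (log2FC 1.06). From 12 to 28 months Alb did not pass the edgeR quasi-likelihood test (FDR 0.142), though it was called in 3 of 14 other settings. The other, LOC689064 (hemoglobin beta), passed the edgeR quasi-likelihood test in no comparison, though it was called in 2 of 15 other settings from 12 to 28 months and in 2 of 16 from 6 to 12 months.

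Summed levels of the matched glial markers, and of hemoglobin beta with albumin, were thus highest in the libraries lowest in Hrh3. Among the microglia markers this held for Cd74, which made up most of the sum, but not for Aif1 and Fcgr3a. Aif1 in the shared library (4.88) lay below both 6-month libraries (5.66 and 5.15). Fcgr3a in 12 months sample 2 (1.37) lay below 6 months sample 1 (1.96). These markers were picked through the study's own lists, and their part in the level of Hrh3 was not tested. None of 5 neuron markers and none of 7 markers of striatum and thalamus was matched, so the cortical label was not checked against defining markers. How much striatum, rich in H3 receptor, a dissection held could therefore not be read from these markers. The share of reads assigned to no annotated gene feature, as given above, also differed between libraries. It was 57.1 and 54.0% at 6 months and 47.5 and 50.6% at 12 months. At 28 months it was 50.4, 60.0 and 53.7%, and in the shared library 59.6%. Among the 7 libraries with 1 age this share was lowest in 12 months sample 1 and highest in 28 months sample 2, and its part in the level of Hrh3 was not tested.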

How the data were processed

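Cortex RNA was sequenced on the SOLiD system, mapped by the authors with Bowtie to the rat genome (build rn4, RGSC 3.4, Ensembl release 65) and counted per gene with HTSeq. The deposited counts are raw, for 29516 identifiers, and the strand setting is not given in the sources used here, so overlapping or antisense genes could not be told apart. Groups follow the labels. Counts were scaled by TMM in edgeR 4.0.16 (R 4.3.3). A gene entered if any library compared held 5 reads or more, and each pair of ages had its own quasi-likelihood fit, with Benjamini-Hochberg FDR over all genes tested, and SE is the log2FC over the root of F. Scripts were tested on simulated counts. Hrh3 and all lists were chosen with earlier results of these data known. Gene names came from identifier lists of the study, 148 in all, and 1 further gene is not reported here. Named genes were Hrh3, all matched list genes, and the 5 highest and 3 lowest named and the 2 highest and 2 lowest unnamed profiles by r (prior count 1). Replicates are pools of 2 rats. Alternatives used RLE, upper-quartile and total scaling, Hprt1, other filters, the exact test, DESeq2 1.42.0 and libraries left out.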

Additional observations from a re-analysis of the deposited data

How the results depend on the processing

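Hrh3 kept its direction in every comparison under every alternative run. This is no separate support, because Hrh3 was chosen for its pattern in these libraries. With ages that did not overlap in normalised counts, leaving out 1 library could not reverse a direction. With 1 library left out in turn, its log2FC ranged from -2.83 to -1.74 (6 to 12 months), 0.78 to 1.38 (12 to 28 months), -1.70 to -0.62 (6 to 28 months) and -1.99 to -1.44 (12 months against the mean), and both values nearest 0 for 6 months came without 6 months sample 1. With the shared library in both ages the first 3 were -1.99, 1.19 and -0.80, and the other settings gave -2.64 to -1.93, 1.05 to 1.16 and -1.59 to -1.24.

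Related genes called were not stable in number, from 0. From 6 to 12 months the exact test called 1 (Egr3) and leaving out a library 1 to 2. From 12 to 28 months the filter of at least 1 read called 2 (Qdpr and Trh), the exact test 2, DESeq2 1 and leaving out a library 0 to 1. From 6 to 28 months the filter of at least 1 read called 3 (Arc, Etv1 and Qdpr), the filter of at least 10 reads 1, 1 fit over the ages 1, the exact test 2, DESeq2 2 and leaving out a library 0 to 2. Of the 5 named profiles most like Hrh3, Spearman's rho kept 3 and RLE scaling 5. The cause of these differences was not tested.

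Marker calls, recomputed under the same alternatives after the data were seen, held in 14 of 16 for Cd74, 13 of 15 for Alb (too few reads for the filter of at least 10) and 11 of 16 for Gfap from 6 to 12 months, and in 11 of 15 for Cd74, 11 of 15 for Gfap and 10 of 15 for Aif1 from 12 to 28 months, with the direction kept.

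Calls over all genes moved too. From 6 to 12 months 191 became 0 with the shared library in both ages, 19 with it at 6 months, 109 with it at 12 months, 112 with the filter of at least 1 read, 462 by the exact test, and 360 to 883 with a library left out. From 12 to 28 months 19 became 9 with the shared library, 7 under total scaling, 139 with at least 1 read, 128 by the exact test, 82 by DESeq2, and 0 to 142 with a library left out, 0 without 28 months sample 3 or 12 months sample 2. From 6 to 28 months 33 became 18 with the shared library, 199 with at least 1 read, 138 by the exact test, 72 by DESeq2, and 0 to 137 with a library left out, 0 without 28 months sample 3. Leaving out a library at 6 or 12 months left 1 library in that age, assumed to vary like the others. At 34 to 49 reads in the lowest libraries, counting error alone limits differences among them.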
